A study of Mus musculus with 2 samples.

Results

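Tnf and 9 genes of the receptor and feedback circuit around it were followed in sorted mouse microglia: the receptor genes Tnfrsf1a and Tnfrsf1b, the NF-kB inhibitors and feedback genes Nfkbia, Tnfaip3, Nfkbiz and Nfkbid, and the subunit genes Nfkb1, Nfkb2 and Rel. The 10 genes were chosen by symbol from the 32589 features of the count files, and each symbol was found. Microglia had been sorted by flow cytometry as CD45low CD11b+ cells. They came from prefrontal cortex, and the C57BL/6 mice had received corticosterone or its vehicle by oral gavage. Corticosterone is the chief stress hormone of mice, and its repeated dosing serves to model depression. The cortex was dissociated enzymatically at 37 °C ahead of sorting, and single-cell libraries were made with a Singleron GEXSCOPE kit. There was 1 library per group, so no test between groups was possible, no p-value is given, and intervals at the 95% level cover counting error only. The labels used here do not give the dose, the duration, the number of pooled animals, their age or their sex. Any difference of preparation between the libraries cannot be told apart from the treatment.

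Tumour necrosis factor is a cytokine that microglia release within a short time of an inflammatory stimulus. It binds TNF receptor 1, encoded by Tnfrsf1a, and TNF receptor 2, encoded by Tnfrsf1b, and receptor 1 activates NF-kB, a family of transcription factors held in the cytoplasm by inhibitor proteins. NF-kB switches on Tnf itself and also its own brakes, of which IkBα (Nfkbia) and the ubiquitin-editing enzyme A20 (Tnfaip3) are the best known. Glucocorticoids are known to dampen NF-kB-driven transcription in many immune cells.

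The promoters of the feedback genes are shown because these genes are classed together as NF-kB targets. They are the 250 bases before the start site on the gene's strand, from RefSeq on the build GRCm38.p6, in lower case with each match to the NF-kB consensus, on either strand, in capitals. Overlapping matches run together in Nfkb2 and Rel. The windows are chr12:55492648-55492897 (Nfkbia, minus strand), chr10:19015411-19015660 (Tnfaip3, minus strand), chr7:30422156-30422405 (Nfkbid, plus strand), chr19:46304487-46304736 (Nfkb2, plus strand), chr11:23770970-23771219 (Rel, minus strand) and chr17:35202008-35202257 (Tnf, minus strand).
Nfkbia: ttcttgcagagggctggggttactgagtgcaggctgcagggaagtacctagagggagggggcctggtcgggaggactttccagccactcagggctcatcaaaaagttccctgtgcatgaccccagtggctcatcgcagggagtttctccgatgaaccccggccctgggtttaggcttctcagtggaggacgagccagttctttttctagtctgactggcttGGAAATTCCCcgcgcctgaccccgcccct
Tnfaip3: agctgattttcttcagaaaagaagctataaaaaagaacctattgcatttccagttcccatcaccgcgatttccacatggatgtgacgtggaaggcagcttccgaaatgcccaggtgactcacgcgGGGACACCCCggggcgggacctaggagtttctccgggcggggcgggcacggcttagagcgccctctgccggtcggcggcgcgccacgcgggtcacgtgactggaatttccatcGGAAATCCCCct
Nfkbid: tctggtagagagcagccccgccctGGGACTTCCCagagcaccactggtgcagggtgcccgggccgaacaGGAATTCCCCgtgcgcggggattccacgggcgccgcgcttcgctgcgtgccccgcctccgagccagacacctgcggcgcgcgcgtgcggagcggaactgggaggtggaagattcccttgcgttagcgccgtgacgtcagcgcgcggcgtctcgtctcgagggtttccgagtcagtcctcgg
Nfkb2: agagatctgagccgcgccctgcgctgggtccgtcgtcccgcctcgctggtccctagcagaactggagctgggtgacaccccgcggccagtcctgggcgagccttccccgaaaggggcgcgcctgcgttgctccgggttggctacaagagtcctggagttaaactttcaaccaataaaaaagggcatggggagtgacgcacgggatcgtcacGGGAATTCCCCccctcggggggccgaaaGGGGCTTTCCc
Rel: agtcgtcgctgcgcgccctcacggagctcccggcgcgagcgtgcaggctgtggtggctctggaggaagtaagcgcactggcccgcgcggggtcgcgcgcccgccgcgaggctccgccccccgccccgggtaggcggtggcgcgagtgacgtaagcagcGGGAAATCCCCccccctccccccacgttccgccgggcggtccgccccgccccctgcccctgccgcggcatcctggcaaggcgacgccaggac
Tnf: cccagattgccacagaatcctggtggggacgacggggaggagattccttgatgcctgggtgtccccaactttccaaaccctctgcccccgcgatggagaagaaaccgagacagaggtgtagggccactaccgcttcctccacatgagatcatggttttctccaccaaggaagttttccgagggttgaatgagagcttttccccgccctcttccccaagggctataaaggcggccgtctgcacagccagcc
Of the 10 genes, 8 had a promoter in the RefSeq table, all but Nfkbiz and Nfkb1, and 5 of the 8 held at least 1 match: Nfkbia, Tnfaip3, Nfkbid, Nfkb2 and Rel. Of all 27025 genes with a promoter in that table, 4.46% held a match in a window of this length, as did 3.90% of the 32851 windows. The windows of Tnf, Tnfrsf1a and Tnfrsf1b held none of these letters, which says only that the consensus is not spelled out there. Tnfaip3, Nfkbid and Nfkb2 each have more than 1 annotated start, and for each the window with the most matches is printed. The second window of Tnfaip3 and the other 2 of Nfkbid held 0 matches, and the other 2 of Nfkb2 held 1 each.

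The transcript of Tnf also carries a dense AU-rich element, the type of sequence bound by the decay factor tristetraprolin (Zfp36). In the GENCODE M21 annotation of GRCm38, its 3′ untranslated region of 764 bases held 8 copies of TATTTAT, and 0.176% of 21020 genes held as many. The stretch from base 438 to base 467 after the stop codon holds 5 of them, in capitals where they run together.
Tnf: tTATTTATTATTTATTTATTATTTATTTAT
Tnfaip3, Nfkbia and Rel each held 2 copies, and the other 6 genes held 0. At least 1 copy was present in 27.6% of all genes. A match describes letters in the reference and does not show that a factor acted on these transcripts.

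After cells under 500 UMIs (molecular tags that each count a captured transcript), under 300 genes or above 20% mitochondrial UMIs were left out, the vehicle library held 10500 cells and 49325067 UMIs, and the corticosterone library 17883 cells and 85103539 UMIs. The libraries shared 104 cell barcodes. The file names use wildtype and depression in place of the labels' groups, and each file was assigned through its sample record. Clusters with a microglia signature held 7878 vehicle cells (75.0% of the library) and 15273 corticosterone cells (85.4%), and all 10 microglia markers were detected in both. In these cells the summed level of 10 neutrophil markers was 455 CPM (vehicle) and 147 CPM (corticosterone), where CPM is UMIs per 1e+06 summed UMIs, and that of 9 markers of border-associated macrophages was 332 and 338 CPM. The part of these other cells' RNA in the results below was not tested. Nearly all microglia-like cells sat in 3 clusters, and the libraries filled them unequally: cluster 1 held 91.1% of vehicle and 1.40% of corticosterone cells, cluster 0 held 2.42% and 64.3%, and cluster 2 held 5.05% and 29.5%. A cluster filled mostly by 1 library may be that library and not a state of the cells. Cluster 0 held 191 vehicle cells and cluster 1 held 214 corticosterone cells. A ratio within either cluster thus sets few cells of 1 library against many of the other, and these may not be like cells.

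In microglia-like cells the transcripts of the circuit did not move as a block. Tnf and Nfkb2 stood higher in the corticosterone library, and Nfkbid, Rel and Tnfaip3 stood lower. With a change counted as at least 1.5-fold among genes of at least 20 CPM on average, a level all 10 genes passed, 1 rose (Nfkb2), 2 fell (Nfkbid and Rel) and 7 did neither. Of all 6596 genes at that level, 5.28% were at least 1.5-fold higher and 4.75% at least 1.5-fold lower. The median log2 ratio of corticosterone over vehicle was -0.11 over the 10 genes and -0.00 over all genes, with 4 of the 10 genes above 0. The intervals of Nfkb2 and Rel reach under 1.5-fold, and that of Nfkbid does not. Under TMM scaling the shares of all genes became 7.14% higher and 3.41% lower, and under DESeq2 size factors 7.65% and 3.14%, with the median of all genes at 0.09 and 0.11. The plot of levels in microglia-like cells shows each gene in both libraries.

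**Figure D1:**
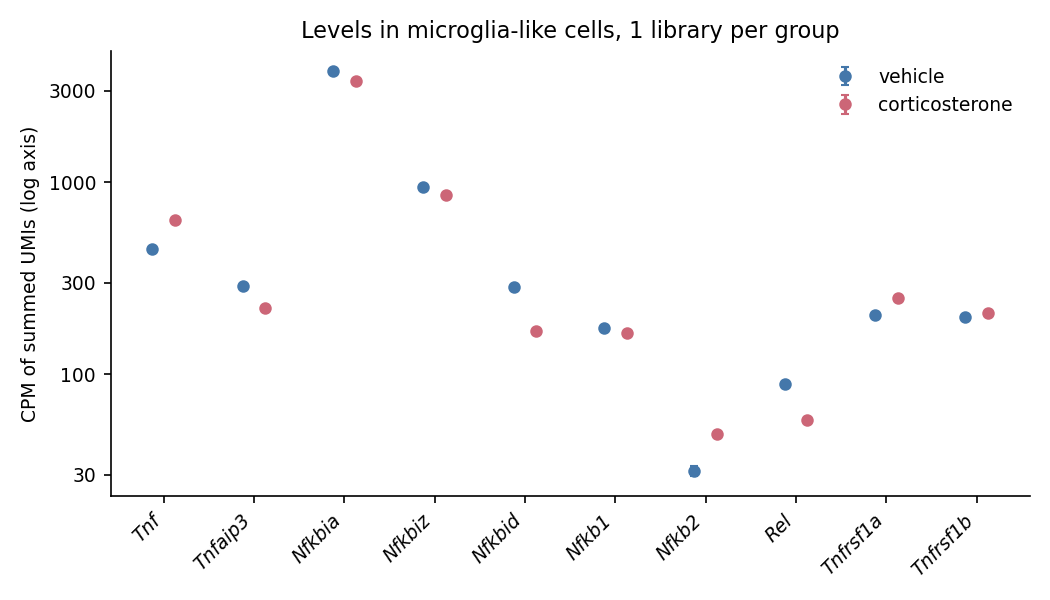
CPM of each gene in the summed microglia-like cells of the vehicle (blue) and corticosterone (red) library, on a log axis, with exact Poisson intervals that are mostly smaller than the points. Tnf (448 against 637 CPM), Nfkb2 (31.4 against 48.7 CPM) and Tnfrsf1a (203 against 251 CPM) are higher in corticosterone, and Nfkbid (284 against 168 CPM) and Rel (88.6 against 58.0 CPM) are lower. Levels are not per length and are read within a gene only.

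Tnf, the ligand (chr17:35199381-35202007, minus strand, GRCm38), amounted to 448 CPM (441 to 455) among vehicle cells and to 637 CPM (632 to 643) among corticosterone cells. The ratio was 1.42, a log2 ratio of 0.51 (0.48 to 0.54), which is under the 1.5-fold rule and inside the range of -0.56 to 0.60 that holds the 5th to 95th percentile of all genes. It passed the rule under TMM (0.60) and DESeq2 (0.62) scaling. Without cluster 2, where Tnf was low in both libraries, the log2 ratio was 0.73. The gap therefore depended on which microglia-like clusters were summed.

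Neither receptor gene passed the rule. Tnfrsf1a (chr6:125349362-125362484, plus strand), the receptor with a death domain, measured 203 CPM (198 to 208) among vehicle cells and 251 CPM (247 to 255) among corticosterone cells, and its log2 ratio was 0.31 (0.27 to 0.35). Tnfrsf1b (chr4:145213463-145246870, minus strand), the receptor found mainly on immune and endothelial cells, was at 198 CPM (193 to 203) and 208 CPM (205 to 212), a log2 ratio of 0.07 (0.03 to 0.12).

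Among the inhibitors and feedback genes, only Nfkbid passed it. Nfkbid (chr7:30421732-30428746, plus strand) encodes IkBNS, a nuclear IkB protein, and measured 284 CPM (278 to 290) among vehicle cells and 168 CPM (165 to 171) among corticosterone cells, 0.592 times the vehicle level and a log2 ratio of -0.76 (-0.80 to -0.72). Tnfaip3 (chr10:19000910-19015657, minus strand), which encodes A20, was at 290 CPM (284 to 296) and 222 CPM (218 to 225), a log2 ratio of -0.39 (-0.43 to -0.35). Nfkbia (chr12:55489410-55492647, minus strand), the inhibitor that retains NF-kB in the cytoplasm, was at 3771 CPM (3750 to 3793) and 3345 CPM (3332 to 3359), a log2 ratio of -0.17 (-0.18 to -0.16). Nfkbiz (chr16:55811375-55838899, minus strand), which encodes the nuclear co-regulator IkBζ, was at 942 CPM (932 to 953) and 858 CPM (852 to 865), a log2 ratio of -0.13 (-0.15 to -0.11). Over all microglia-like cells, these 4 were below their vehicle level while Tnf stood above it. In clusters 0 and 1 the log2 ratio of Tnf was itself below 0 (-0.18 and -0.24). That of Tnfaip3 was -0.16 and 0.01 there, with intervals that span 0. Without cluster 2 the log2 ratios of Nfkbia and Nfkbiz were 0.00 and 0.08, and that of Nfkbid was -0.57, under the rule. Within single clusters Nfkbid passed the rule in clusters 0 (-0.76), 1 (-0.76), 2 (-1.09) and 10 (-0.68).

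The subunit genes went in different directions. Nfkb2 (chr19:46304320-46312385, plus strand), the precursor p100 of the alternative pathway, measured 31.4 CPM (29.5 to 33.4) among vehicle cells and 48.7 CPM (47.1 to 50.4) among corticosterone cells, 1.55 times higher and a log2 ratio of 0.64 (0.53 to 0.74). Its exons overlap those of Psd and AC114539.1 on the other strand, and whether reads were counted by strand is not given in the sources used here. Psd itself had 21 and 27 UMIs in these cells. By cluster, the log2 ratio of Nfkb2 was -0.05 (-0.53 to 0.49) in cluster 0 and -0.07 (-0.72 to 0.52) in cluster 1, so neither showed the rise over all microglia-like cells. It was 1.47 (0.63 to 2.48) in cluster 2 and 1.39 (0.41 to 2.50) in cluster 10, each with 11 vehicle UMIs. Rel (chr11:23736847-23770970, minus strand), the subunit c-Rel, was at 88.6 CPM (85.4 to 91.9) and 58.0 CPM (56.3 to 59.8), 0.655 times the vehicle level, a log2 ratio of -0.61 (-0.68 to -0.54). By cluster, its log2 ratio was -0.57 in cluster 0, -0.21 (-0.60 to 0.16) in cluster 1 and -0.56 in cluster 2, none of which reaches the rule. Its log2 ratio over all microglia-like cells did not reach the rule under TMM (-0.52) or DESeq2 (-0.50) scaling. With the mean of per-cell CPM that ratio was -0.92, past the rule. Nfkb1 (chr3:135584655-135691547, minus strand), the precursor p105 of the classical subunit p50, was at 173 CPM (169 to 178) and 163 CPM (160 to 166), a log2 ratio of -0.08 (-0.13 to -0.04) that turned to 0.02 under DESeq2 scaling.

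The rest of the pathway gave a frame for these values. Of all 6596 genes at 20 CPM or more on average, 5.28% rose and 4.75% fell by the 1.5-fold rule. Of 26 measured kinases, adaptors, ubiquitin enzymes and other NF-kB proteins, 0 rose and 0 fell by 1.5-fold, with a median log2 ratio of 0.02. They ran from Tnip2, a partner of A20, at -0.40 to Relb, the subunit that pairs with the product of Nfkb2, at 0.57. Under the level filter and not counted, Bcl3 (8.14 and 21.4 CPM) was at 1.40 and Rnf31 (14.8 and 23.9 CPM) at 0.69. Rela, the main activating subunit, measured 135 CPM (vehicle) and 134 CPM (corticosterone). Of 13 genes of TNF processing and mRNA decay, 1 rose and 1 fell, with a median of -0.03. Mapkapk2, a kinase that stabilises Tnf mRNA, was at 0.66, and Zfp36l1, a decay factor of the tristetraprolin family, was at -0.78. Zfp36 itself was at 5700 CPM and 4724 CPM, a log2 ratio of -0.27.

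Other NF-kB target genes gave a higher median than the 10 genes. Of 23 measured, 10 rose and 0 fell, where 5.28% of all genes rose and 4.75% fell. The median log2 ratio of the 23 was 0.35, from Il6 at -0.41 to Il1b, the gene of interleukin-1β, at 3.37. Of the 10, Cxcl2 (13.2 CPM in vehicle, 47.5 CPM in corticosterone) and Bcl2a1d (14.1 and 55.7 CPM) passed the level filter only through corticosterone. The list was chosen with earlier results of these data known, so the count is a description only. The 10 included the chemokine genes Ccl2 (0.87) and Cxcl10 (1.01) and Tlr2 (1.16), a receptor for bacterial lipoproteins. The reads of Bcl2a1d may be split with near-identical copies such as Bcl2a1b. Of the TNF superfamily, 4 receptor genes passed the level filter beside the 2 described, and 0 rose or fell, from Tnfrsf21 at -0.35 to Tnfrsf11a at 0.26. Of 2 measured ligand genes, Tnfsf13b, which encodes the B cell factor BAFF, rose with a log2 ratio of 1.04, and Tnfsf12 was at 0.33. Tnfsf13b (13.7 CPM in vehicle, 28.2 CPM in corticosterone) passed the level filter only through corticosterone. The ligand gene Ltb, lower in corticosterone at 10.3 and 6.58 CPM, lay under the filter and was not counted. The early response genes that tissue dissociation is known to induce summed to 43684 CPM (vehicle) and 37749 CPM (corticosterone). Of 15 measured, 0 rose and 4 fell, with a median of -0.26, from Klf2 at -1.58 to Dusp1 at 0.46. Their part in the lower levels of the feedback genes was not tested.

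Shares of cells gave the same directions as the summed levels. With cells thinned to a common depth of 1000 UMIs, Tnf was found in 27.8% (26.7 to 28.8%) of 7290 vehicle cells and, of 15185 corticosterone cells, in 34.0% (33.3 to 34.8%), and without thinning in 51.5% and 63.1%. Nfkbid turned up in 22.6% (21.6 to 23.5%) and 13.7% (13.1 to 14.2%), and Nfkbia in 88.6% (87.9 to 89.3%) and 81.5% (80.8 to 82.1%). The share was larger in corticosterone for 4 of the 10 genes, Tnf, Nfkb2, Tnfrsf1a and Tnfrsf1b, and smaller for 6. Erythroid-like barcodes, which should lack these transcripts, had Tnf in 27.1% (19.7 to 35.5%) of 133 vehicle barcodes at that depth, and for 68 corticosterone barcodes the share was 23.5% (14.1 to 35.4%). Their median depths before thinning were 2514.5 and 3763 UMIs, against 3187 and 4005 UMIs in microglia-like cells. In both libraries the interval of the erythroid-like share reached the microglia-like share of Tnf. P2ry12, a microglia marker, was found without thinning in 98.8% of vehicle and 100% of corticosterone erythroid-like barcodes, and the levels of 4 such markers there had a median of 0.796 and 0.841 relative to microglia-like cells. These barcodes thus held microglial RNA at near the microglia-like level, and they give no measure of the background share. By summed level, erythroid-like barcodes had Tnf at 476 CPM (416 to 541) and 408 CPM (344 to 480).

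Tnf was spread unevenly between cells. Cells under 2000 UMIs were left out and the others thinned to 2000, which kept 6148 of 7878 vehicle and 14569 of 15273 corticosterone cells. In cluster 2 the median depth was 1647.5 UMIs in vehicle and 3095 UMIs in corticosterone, so its vehicle cells were left out more often. The cells compared between libraries at this depth were thus unequally selected. Of those kept, 57.8% of vehicle and 50.6% of corticosterone cells had 0 Tnf UMIs. Tnf UMIs numbered 3 or more in 11.0% and 17.1%, and 5 or more in 3.97% and 6.99%. The 10% of cells with the most Tnf held 52.2% and 49.0% of all Tnf UMIs. The variance of Tnf UMIs over their mean was 2.82 in vehicle and 3.51 in corticosterone, where counting alone gives 1. That of Nfkbia was 3.69 and 4.95, and those of Tnfrsf1a (1.06 and 1.06) and Nfkb1 (1.07 and 1.07) were near 1. Cells without Nfkbia UMIs made up 3.61% of vehicle and 8.54% of corticosterone cells.

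Across single microglia-like cells, Tnf had its higher correlations among the 10 genes with Nfkbia, Nfkbiz and Nfkbid. The Pearson r of log2(UMI + 1) with Tnf, after thinning to 2000 UMIs, was 0.20 (vehicle) and 0.32 (corticosterone) for Nfkbia, 0.15 and 0.24 for Nfkbiz, and 0.15 and 0.14 for Nfkbid. The 99th percentile of the same r over 6595 genes was 0.041 and 0.064. Tnfaip3 gave 0.03 and 0.07, and the receptors and subunits lay between -0.02 and 0.04, too weak in counts this sparse to read. Of the 45 pairs among the 10 genes, 6 had an r of at least 0.1 in both libraries, and the highest was Nfkbia with Nfkbiz (0.30 and 0.39). Tnfaip3 with Nfkbia was also among the 6 (0.12 and 0.18). Each r is a description over cells that share a library, with depth made equal by thinning and cells under 2000 UMIs left out.

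**Figure D2:**
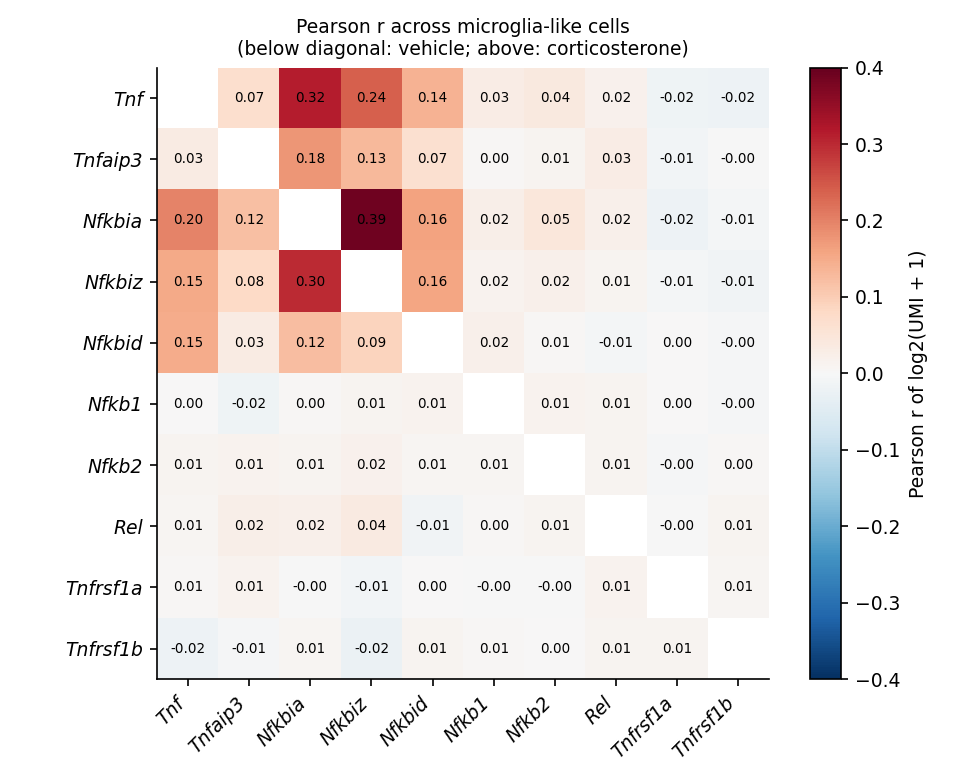
Pearson r of log2(UMI + 1) between the genes across microglia-like cells thinned to 2000 UMIs, with the vehicle library below the diagonal (6148 cells) and the corticosterone library above it (14569 cells). Tnf, Nfkbia, Nfkbiz and Nfkbid form a block of positive values with Nfkbia and Nfkbiz highest (0.30 and 0.39), and the receptor and subunit genes lie near 0. Tnfaip3 is positive with Nfkbia (0.12 and 0.18) and Nfkbiz (0.08 and 0.13), and lower with Tnf (0.03 and 0.07).

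Within single clusters the values were smaller in corticosterone. In cluster 1 of vehicle (5733 cells) the r of Tnf with Nfkbia was 0.19, within cluster 0 of corticosterone (9739 cells) 0.22, and within cluster 2 of corticosterone (3920 cells) 0.11. In the same order, that of Tnf with Nfkbiz was 0.13, 0.12 and 0.00, and that of Tnf with Nfkbid was 0.14, 0.09 and 0.07, against 0.24 and 0.14 over all corticosterone cells. That of Nfkbia with Nfkbiz was 0.29, 0.23 and 0.23 in the same order. Nfkbia and Nfkbiz also went with the summed early response genes (r of 0.30 and 0.40 for Nfkbia, 0.20 and 0.32 for Nfkbiz in vehicle and corticosterone), whereas Tnf did so less (0.02 and 0.12). The part of tissue dissociation in the shared pattern was not tested. Ranked by the lower of its r in the 2 libraries, the genes most like Tnf among 6365 were Ccl2 (0.24), Ier3 (0.21), Nfkbia (0.20), Ccl4 (0.17) and Nfkbiz (0.15).

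Grouping the cells by their own Tnf UMIs showed what this meant in levels. Nfkbia averaged 676 UMIs per 100 vehicle cells without Tnf and 976 in cells with 3 or more Tnf UMIs, and in corticosterone 526 and 983. Cells with 3 or more Tnf UMIs thus held like amounts of Nfkbia in both libraries, and the gap lay in cells with fewer. Nfkbiz had the same form, from 174 to 250 in vehicle and from 134 to 250 in corticosterone. These groups mix the clusters. Cluster 2, low in Nfkbia (1501 and 1458 CPM), held 5.05% of vehicle and 29.5% of corticosterone cells. The log2 ratio of Nfkbia was -0.18 (-0.23 to -0.12) in cluster 0, -0.33 in cluster 1 and -0.04 (-0.13 to 0.05) in cluster 2. The part of the clusters in this pattern was not tested. Nfkbid went from 47.9 to 86.5 in vehicle and from 25.5 to 48.0 in corticosterone, so that it was lower in corticosterone at each level of Tnf. Tnfaip3 went from 54.8 to 56.1 in vehicle and from 40.3 to 54.3 in corticosterone. Tnfrsf1a was at 1.02 and 0.922 times its level in cells without Tnf, and Tnfrsf1b at 0.820 and 0.927 times.

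**Figure D3:**
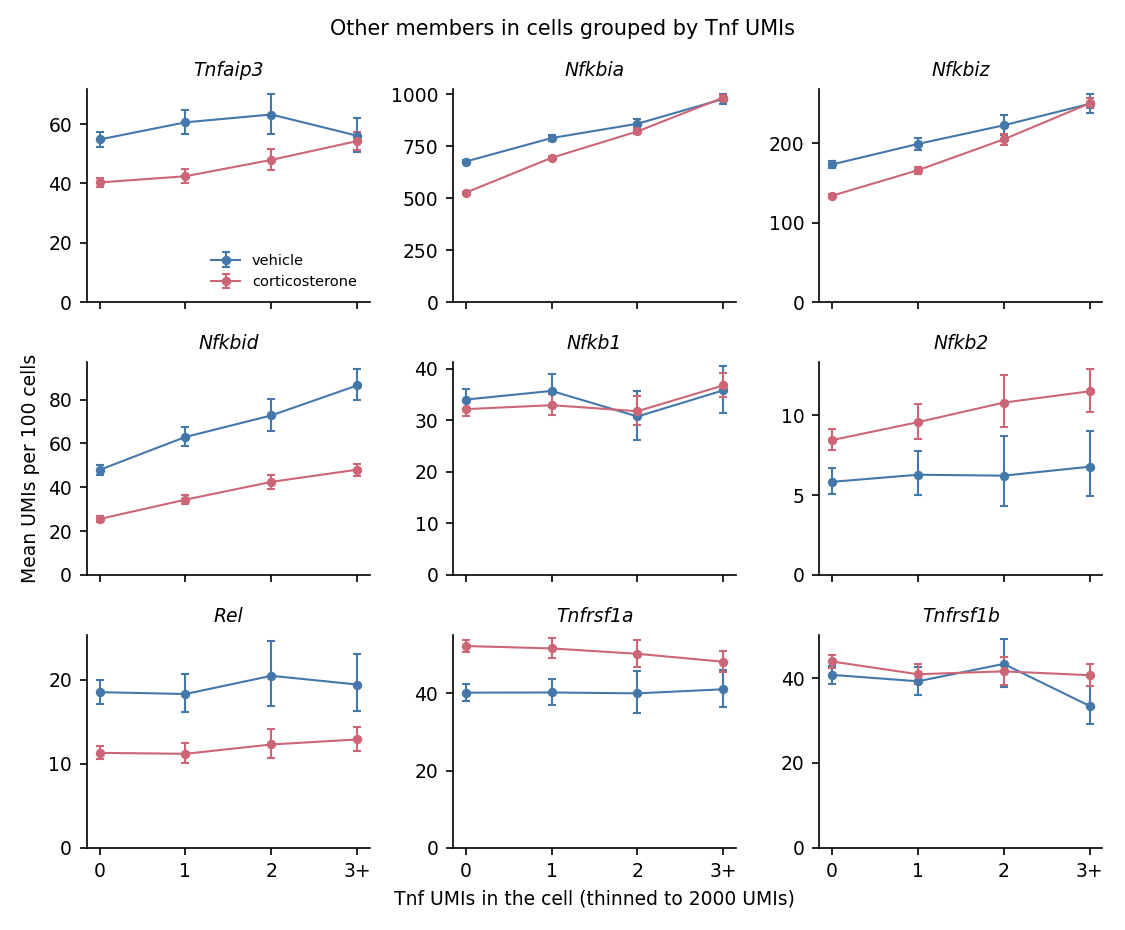
Mean UMIs per 100 microglia-like cells of the other 9 genes (vertical axes from 0) in cells with 0, 1, 2 or at least 3 Tnf UMIs, for vehicle (blue) and corticosterone (red), each cell thinned to 2000 UMIs, with exact Poisson intervals. Nfkbia and Nfkbiz meet at 3 or more Tnf UMIs (976 and 983 for Nfkbia), Nfkbid stays lower in corticosterone throughout, and Tnfrsf1a stays at 1.02 and 0.922 times its level in cells without Tnf.

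By cluster, Tnf differed more between microglia-like clusters than between libraries within a cluster. Tnf was a leading gene of cluster 0 and helped to form the clusters, so these levels are a description. Cluster 10, led by Spp1 and Lpl, had 1339 CPM (1200 to 1489) in 52 vehicle cells and 1763 CPM (1630 to 1904) in 55 corticosterone cells. Cluster 5, led by the interferon-induced genes Ifit2 and Ifit3, had 830 CPM (691 to 988) in 43 cells and 1046 CPM (1013 to 1079) in 674. Cluster 0 had 827 CPM (759 to 898) in 191 vehicle cells and 730 CPM (723 to 738) in 9818 corticosterone cells. Cluster 1 had 437 CPM (430 to 445) in 7176 vehicle cells and 372 CPM (331 to 416) in 214 corticosterone cells. Within clusters 0 and 1 the corticosterone level was thus the lower one, against the direction over all microglia-like cells. Each of these comparisons sets few cells of 1 library against many of the other, and these may not be like cells. Cluster 2 had 161 CPM (133 to 193) and 183 CPM (176 to 190).

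In cluster 2 the feedback genes were low together with Tnf. In the corticosterone library, Tnf was 3.98 times, Nfkbiz 4.02 times, Nfkbid 2.94 times, Nfkbia 2.67 times and Tnfaip3 2.15 times higher in cluster 0 than in cluster 2. Rel (1.14 times), Nfkb1 (1.09 times), Tnfrsf1a (0.948 times) and Tnfrsf1b (0.962 times) were near equal. Nfkb2 was 1.17 times (1.07 to 1.28) higher in cluster 0 than in cluster 2 of corticosterone, and 3.36 times (1.66 to 7.34) in vehicle, from 34 and 11 UMIs. The early response genes summed to 40175 CPM in cluster 0 and 29903 CPM in cluster 2 of that library, and the median depth was 4460 and 3095 UMIs. Their part in the low levels of cluster 2 was not tested.

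**Figure D4:**
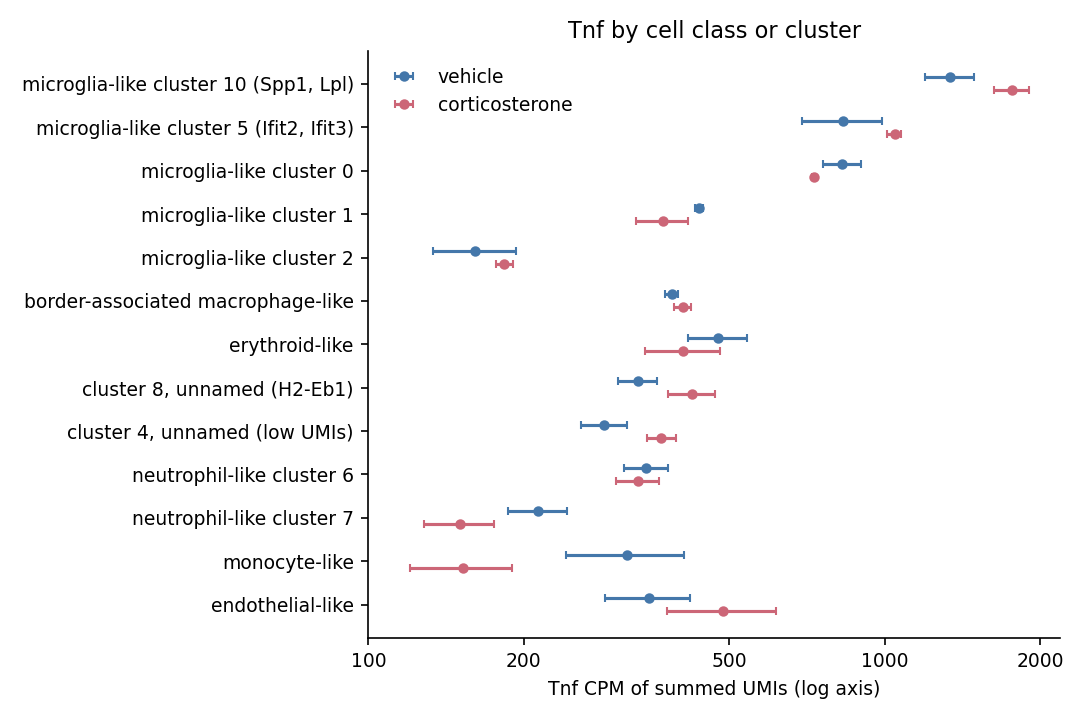
Tnf CPM of summed UMIs, on a log axis, by cell class or cluster for vehicle (blue) and corticosterone (red), with exact Poisson intervals. Within microglia-like cells the level runs from 161 and 183 CPM in cluster 2 to 1339 and 1763 CPM in cluster 10, and the neutrophil-like cluster 7 and monocyte-like corticosterone cells lie lowest among the other classes. The cycling cluster 13, with 18 and 2 cells, is left out.

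Border-associated macrophages live in the meninges and along vessels. In cells like them Tnf measured 387 CPM (376 to 399) among 1072 vehicle cells and 406 CPM (391 to 422) among 794 corticosterone cells, a log2 ratio of 0.07. Of the 10 genes, Nfkb2 rose there (0.84), Tnfaip3 (-0.62) and Nfkbid (-0.71) fell, and 7 did neither, where 6.29% of 6570 genes were higher and 4.92% lower. Nfkbia stood at 3270 CPM and 2312 CPM, a log2 ratio of -0.50. The directions for Nfkb2 and Nfkbid were those seen in microglia-like cells. These barcodes also carried 4 microglia markers at 0.827 times the microglia-like level in vehicle and 0.648 times in corticosterone, and the part of microglial RNA in their values was not tested.

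In neutrophil-like cells, 455 in vehicle and 398 in corticosterone, Tnf was at 284 CPM (262 to 306) and 249 CPM (229 to 270), a log2 ratio of -0.19 (-0.35 to -0.03). Within its 2 clusters that ratio was -0.05 (-0.25 to 0.14) in cluster 6 and -0.51 (-0.80 to -0.21) in cluster 7. Of the 10 genes 0 rose and 5 fell, where 8.42% of 5927 genes were higher and 15.3% lower. They were Tnfaip3 (-1.07), Rel (-0.76), Nfkbid (-0.72), Nfkbia (-0.63) and Nfkbiz (-0.59), beside a median of -0.11 over all genes. The neutrophil-like cells came from clusters 6 and 7, which held 200 and 255 vehicle cells and 273 and 125 corticosterone cells. Tnfaip3 was lower within both (-0.85 in cluster 6 and -1.56 in cluster 7), as was Nfkbid (-0.64 and -0.95), whereas Nfkbia passed the rule in cluster 7 (-1.09) and not in cluster 6 (-0.45). Nfkbiz and Rel also passed it in cluster 7 (-0.95 and -1.67) and not in cluster 6 (-0.43 and -0.28), where the interval of Rel was -0.76 to 0.21. Microglia markers in these barcodes stood at 0.557 times the microglia-like level in vehicle and 0.357 times in corticosterone. By cluster they stood at 0.701 and 0.533 times in cluster 6, and at 0.378 and 0.150 times in cluster 7. The median depth was 2702 and 2422 UMIs in cluster 6, and 2744 and 7478 UMIs in cluster 7. The part of microglial RNA and of depth in the difference was not tested. In erythroid-like barcodes, Nfkbid was at -0.75 (-1.33 to -0.19) and Rel at -0.62 (-1.36 to 0.07), the latter from 55 and 26 UMIs. These 2 of the 10 genes passed the rule as lower and 0 as higher, where 14.6% of genes were lower and 19.2% higher. The interval of Rel spans 0. Nfkbid and Rel had the same direction as in microglia-like cells. Tnf (-0.22, -0.53 to 0.08) and Nfkb1 (0.35, -0.17 to 0.86) had the other sign, with intervals that span 0. Erythroid-like barcodes held microglial RNA at near the microglia-like level, so a shared direction is no separate observation.

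**Figure D5:**
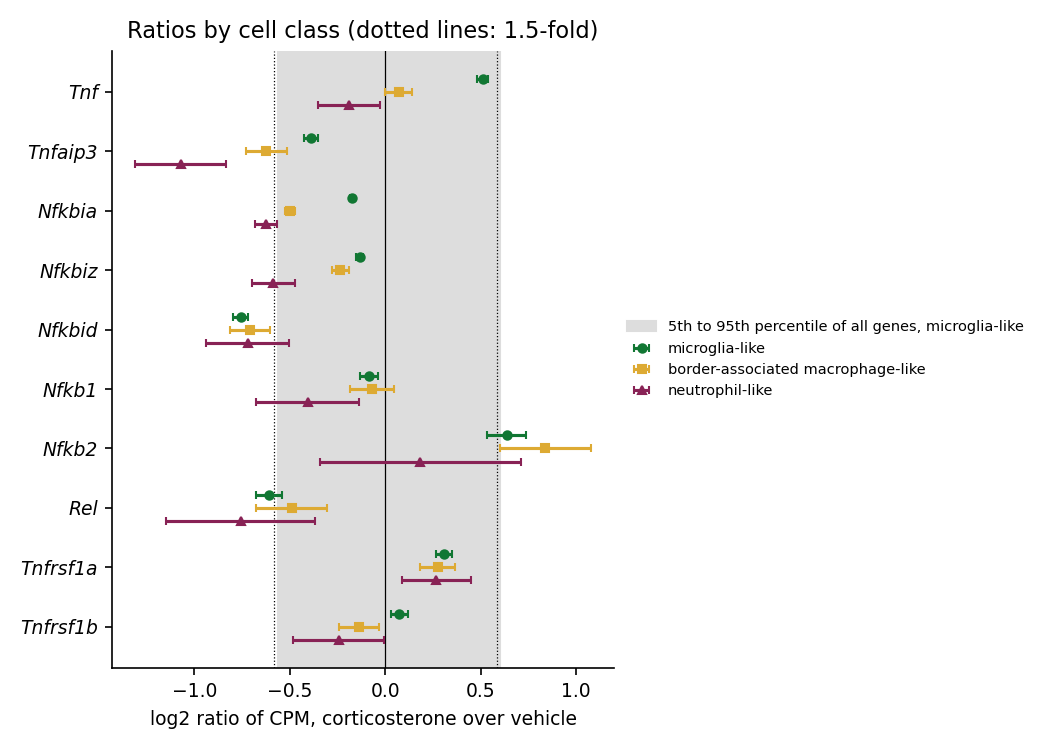
The log2 ratio of corticosterone over vehicle for each gene in microglia-like (circles), border-associated macrophage-like (squares) and neutrophil-like cells (triangles), with exact intervals for counting error. The grey band is the 5th to 95th percentile of all genes in microglia-like cells (-0.56 to 0.60) and dotted lines mark 1.5-fold. Nfkbid lies below the lower line in all 3 classes, and Tnf lies at 0.51 in microglia-like, 0.07 in border-associated macrophage-like and -0.19 in neutrophil-like cells.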

How the data were processed

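Single-cell RNA sequencing of 2 libraries, 1 of vehicle and 1 of corticosterone, was analysed. The authors deposited raw counts of UMIs for each gene in each barcode, which the whole numbers and unequal cell totals bear out. The submitters' processing notes name bcl2fastq 2.19 and the build GRCm38. The aligner, counting program, annotation and strand setting are not given in the sources used here. The 10 genes, the 6 pathway lists and the markers of 18 cell classes were chosen with earlier results of these data known.

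Counts were filtered as described in the Results, scaled to 10000 per cell, log-transformed and clustered over both libraries (scanpy 1.11.5, leidenalg 0.10.2; 2000 variable genes scaled to a maximum of 10, 30 components, 15 neighbours, resolution 0.5). A cluster was named for a class from at least 3 markers seen in 10% or more of its cells and 2 times as high as elsewhere, or as microglia-like from at least 3 detected microglia markers with a geometric mean of at least 0.5 times that of all cells. Low-UMI cluster 4 (666 and 1175 cells) and cluster 8, led by MHC class II genes (196 and 89 cells), stayed unnamed. Scrublet marked 0 cells in each library and was judged not to have worked, and doublets were not removed.

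UMIs were summed per library and class and given as CPM with exact Poisson intervals, exact conditional intervals for ratios and Clopper-Pearson intervals for shares (scipy 1.17.1). Named genes were the 10 genes, the highest and lowest log2 ratio of each list at 20 CPM or more, and the 5 genes most like Tnf. Rela, Zfp36, Ccl2, Cxcl2, Cxcl10, Tlr2, Bcl2a1d, Ltb, Tnfsf9, Tnfsf10, Bcl3, Rnf31 and the genes that lead clusters were named after their values were seen. The calculations were tested on simulated data. Alternatives were scaling by edgeR 4.0.16 (TMM) and DESeq2 1.42.0 (size factors), the mean of per-cell CPM, other cell filters and clusterings, other level filters, fold rules and depths of thinning. Leaving out clusters 2 or 5 and 10 and correlation within clusters were added after the data had been seen.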

Additional observations from a re-analysis of the deposited data

Results flagged for a closer look

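The log2 ratio of Tnf, corticosterone over vehicle, was -0.19 (-0.35 to -0.03) in neutrophil-like cells and 0.51 in microglia-like cells. The opposite signs held for the summed classes and not for all their clusters: Tnf was at -0.18 and -0.24 in microglia-like clusters 0 and 1, and at -0.05 (-0.25 to 0.14) and -0.51 in neutrophil-like clusters 6 and 7. Tnfrsf1b was at -0.14 (-0.24 to -0.03) in border-associated macrophage-like cells and -0.24 (-0.48 to -0.01) in neutrophil-like cells, against 0.07 in microglia-like cells. Its neutrophil-like value came from cluster 7 (-1.06), which held 255 vehicle and 125 corticosterone cells, and in cluster 6 it was 0.01 (-0.26 to 0.29). Each value stands on 1 library per group, and the difference between classes was not tested.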

How the results depend on the processing

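Without cluster 2, 2 of the 10 genes were at least 1.5-fold higher in microglia-like cells (Tnf and Nfkb2) and 0 at least 1.5-fold lower, and the log2 ratio of Tnf was 0.73. Of all genes, 5.33% were then higher and 4.73% lower. Under TMM and DESeq2 scaling 2 were higher (7.14% and 7.65% of all genes) and 1 lower (Nfkbid; 3.41% and 3.14%), with Tnf at 0.60 and 0.62. The number lower was also 1 with all cells kept (4.04% of all genes) and with the stricter cell filter of at least 1000 UMIs and 500 genes and at most 10% mitochondrial (4.60%). At a 2-fold rule it was 0 in each direction, where 1.76% of all genes were higher and 1.29% lower. Without clusters 5 and 10 the log2 ratio of Tnf was 0.47. With list genes of 5 CPM or more counted, 2 of 34 kinases and adaptors were higher (Bcl3 and Rnf31). Of 5 ligands, 2 were then higher (Tnfsf13b and Tnfsf9) and 1 lower (Ltb). Of 16 early response genes, 1 was then higher and 4 were lower. The share of all genes at 5 CPM or more was not counted. Over 10 alternatives the log2 ratio kept its sign in all 10 for Tnf, Tnfaip3, Nfkbid, Nfkb2, Rel, Tnfrsf1a and Tnfrsf1b, in 9 for Nfkbia and Nfkbiz and in 8 for Nfkb1. Each alternative pooled cells over clusters that the libraries fill unequally, so the kept signs do not bear on the ratios within clusters. Within clusters 0 and 1, Tnf was at -0.18 and -0.24. With each cell thinned to 1000 UMIs in place of 2000, 4 of the 45 pairs had an r of at least 0.1 in both libraries. The causes of these differences were not tested. No paired analysis was possible because each group has 1 library. Depth limits the classes under 50 cells and the erythroid-like shares, which rest on 133 and 68 barcodes.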
